A study of Mus musculus with 9 samples.

Results

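Chemokines are small secreted proteins that direct the movement of cells, and they act through receptors coupled to inhibitory G proteins. The genes described here are the chemokine ligands and the conventional chemokine receptors, taken by symbol (Ccl, Cxcl, Xcl, Cx3cl, Ccr, Cxcr, Xcr or Cx3cr followed by a digit). This choice found 41 of the 23018 genes in the count table. They comprised 28 ligands (16 of the CC, 11 of the CXC and 1 of the CX3C class), 1 ligand pseudogene (Ccl19-ps1) and 12 receptors (7 CC, 4 CXC and 1 CX3C). Chemokines with other symbols, such as Pf4 and Ppbp, and the atypical receptors are given only as context, and a family gene without a row in the table was not analysed here.

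The RNA came from lymphatic endothelial cells (LECs) of 3 tissues, the meninges around the brain, the diaphragm and the skin, taken from male wild-type mice of the C57BL/6 strain, 10 weeks old and untreated. Each tissue gave 3 libraries, called here by tissue and replicate number. For all 9, flow cytometry took cells negative for CD45, the pan-leukocyte surface protein, and positive for CD31 and for podoplanin. Whether replicates were separate mice, pools of mice or repeats of 1 preparation is not said in the labels. The p-values therefore measure only how far these libraries spread, which may be technical. Each comparison asks in which of these tissues LECs held more or less of a chemokine or receptor transcript.

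Levels are CPM values, that is counts scaled to the effective size of each library. Total counts ran from 26075366 in Diaphragm 1 to 34592850 in Meninges 3. All 7 LEC markers examined, the lymphatic regulator Prox1 and podoplanin (Pdpn) among them, had counts in every library. Their summed level was 6345 to 15130 CPM in the meningeal libraries, 13810 to 19730 CPM in the diaphragm libraries and 19680 to 20450 CPM in the skin libraries. Of the 7, edgeR called Lyve1 lower in meninges than in skin (log2 fold change -1.63, SE 0.34, adjusted p 0.0326) and called no other in any comparison. Ptprc, which encodes CD45, was at 3.53 CPM or below in the meningeal libraries, at 0.0369, 119 and 6.23 CPM in Diaphragm 1, 2 and 3, and at 2.03 CPM or below in the skin libraries. In RNA from a sorted population, fewer cells of a type and less RNA per cell cannot be told apart.

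In lymphatic vessels the ligand CCL21 guides dendritic cells and T cells that carry the receptor CCR7 into the lumen. CXCL12 acts through CXCR4, and its free level is lowered by ACKR3, an atypical receptor that takes up chemokine without G-protein signalling. ACKR2, another atypical receptor known in lymphatic endothelium, takes up inflammatory CC chemokines.

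Ccl21a, the best known lymphatic chemokine gene, belongs to a group of near-identical copies on mouse chromosome 4, and the copies are shown because they limit what its count can say. In the GENCODE M21 transcripts (build GRCm38), the coding sequence of Ccl21a has 402 bases. It differs from those of Ccl21b, Gm10591, Gm13304 and Gm21541 at the same 2 positions, T84A and C194T, counted from 1 at the A of the start codon with the Ccl21a base first. The identity is 99.5%. Coding bases 69 to 209 are given 5′ to 3′ on the coding strand, with the bases that differ in capitals.
Ccl21a: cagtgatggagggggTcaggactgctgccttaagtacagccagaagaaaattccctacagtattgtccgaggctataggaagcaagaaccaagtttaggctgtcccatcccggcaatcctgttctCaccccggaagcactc
Ccl21b: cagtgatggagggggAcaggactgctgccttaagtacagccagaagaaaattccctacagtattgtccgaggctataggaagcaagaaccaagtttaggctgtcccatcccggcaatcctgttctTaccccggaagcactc
In this window Gm10591, Gm13304 and Gm21541 carry the same letters as Ccl21b. Between the capitals lie over 100 identical bases, so a short read from there cannot be given to 1 copy.

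Of the 821 stretches of 50 bases in the longest Ccl21a transcript, 588 (71.6%) occurred exactly in a transcript of another gene. The share was 69.2% for Ccl27a (655 of 947 stretches), 59.1% for Ccl19 (428 of 724) and 46% for Ccl19-ps1 (128 of 278). These were the members over 10% among the 40 with a transcript in this set, and 27 of the 40 shared no such stretch. Ccl21c had no transcript there and was not compared. The read length and how the authors counted a read that matches several genes are both not given in the sources used. Their part in the counts of these members was not tested.

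**Figure D1:**
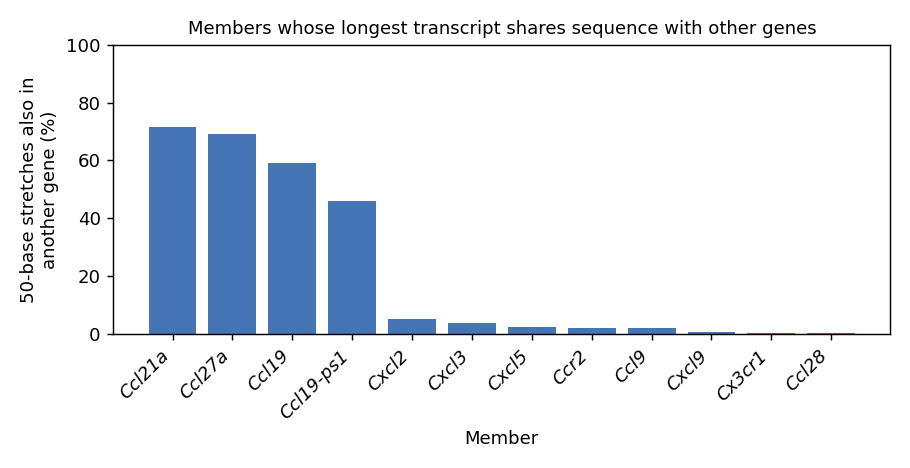
The members with a shared stretch, 12 of them drawn on the x axis, and the percentage of the 50-base stretches of their longest transcript that also occur in another gene, on the y axis (0 to 100%). Ccl21a, Ccl27a, Ccl19 and Ccl19-ps1 stand at 71.6%, 69.2%, 59.1% and 46%, and the other 8 drawn are at 5.35% or below.

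Ccl21a was counted at a low level in each library. Its level was 0.970, 0.156 and 0.608 CPM in Meninges 1, 2 and 3, 0.221, 0.682 and 0.537 CPM in Diaphragm 1, 2 and 3, and 1.35, 0.447 and 0.548 CPM in Skin 1, 2 and 3. The libraries of the 3 tissues overlapped, at means of 0.578 ± 0.408, 0.480 ± 0.236 and 0.783 ± 0.497 CPM in meninges, diaphragm and skin (SD, n = 3 each). The adjusted p of edgeR's quasi-likelihood test was 0.994 for meninges against diaphragm, 0.965 for meninges against skin and 0.941 for diaphragm against skin. Ccl21c, the copy that the table names leucine where Ccl21a is named serine, had 2, 21 and 5 counts in Diaphragm 1, 2 and 3, 61 counts in Skin 1 and 0 in the other 5 libraries. Ccl19, the other CCR7 ligand, had 5 counts in Meninges 2 and 39 in Meninges 3 and none elsewhere. Its pseudogene Ccl19-ps1 had 7 and 98 counts in the same libraries and also none elsewhere. Ccr7 itself had 2 counts in Meninges 3 and 0 in the other 8 libraries.

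All 41 members had at least 1 count in some library, and the table holds 0 genes without one, so presence in it says no more than that. At least 10 counts in a library were reached by 33 members, and at least 1 count in 3 libraries by 27. The 4 members with a count in all 9 libraries were the ligands Cxcl12, Ccl25, Ccl21a and Ccl3, and of the receptors 0 of 12 had one. This is 9.76% of members, beside 40.2% of all genes in the table, and the median total over the 9 libraries was 196 counts per member and 1056.5 per gene of the table. A total of 8 members stayed under 10 counts everywhere. They were the ligands Ccl4, Ccl6, Ccl9, Ccl12 and Cxcl2, which attract monocytes, T cells or neutrophils, and the receptors Ccr1, Ccr6 and Ccr7.

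Counts of a member tended to sit in 1 library. Of the 33 members with at least 10 counts somewhere, 26 (78.8%) had over 50% of their counts in a single library, beside 39.5% of the 20205 genes of the table that reached the same level. Over 90% of the counts came from a single library for 10 of the 33 members (30.3%), beside 14.6% of those genes. The library that held them differed from member to member. Cxcl13 was found only in Diaphragm 3, Cxcl5 only in Skin 1 and Ccl5 only in Skin 2, while 98.46% of Cxcl10 counts came from Meninges 1. The number of members with at least 10 counts was 11, 11 and 18 in the meningeal libraries, 10, 9 and 13 in the diaphragm libraries and 13, 13 and 7 in the skin libraries. In each tissue 4 members reached 10 counts in all 3 libraries.

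**Figure D2:**
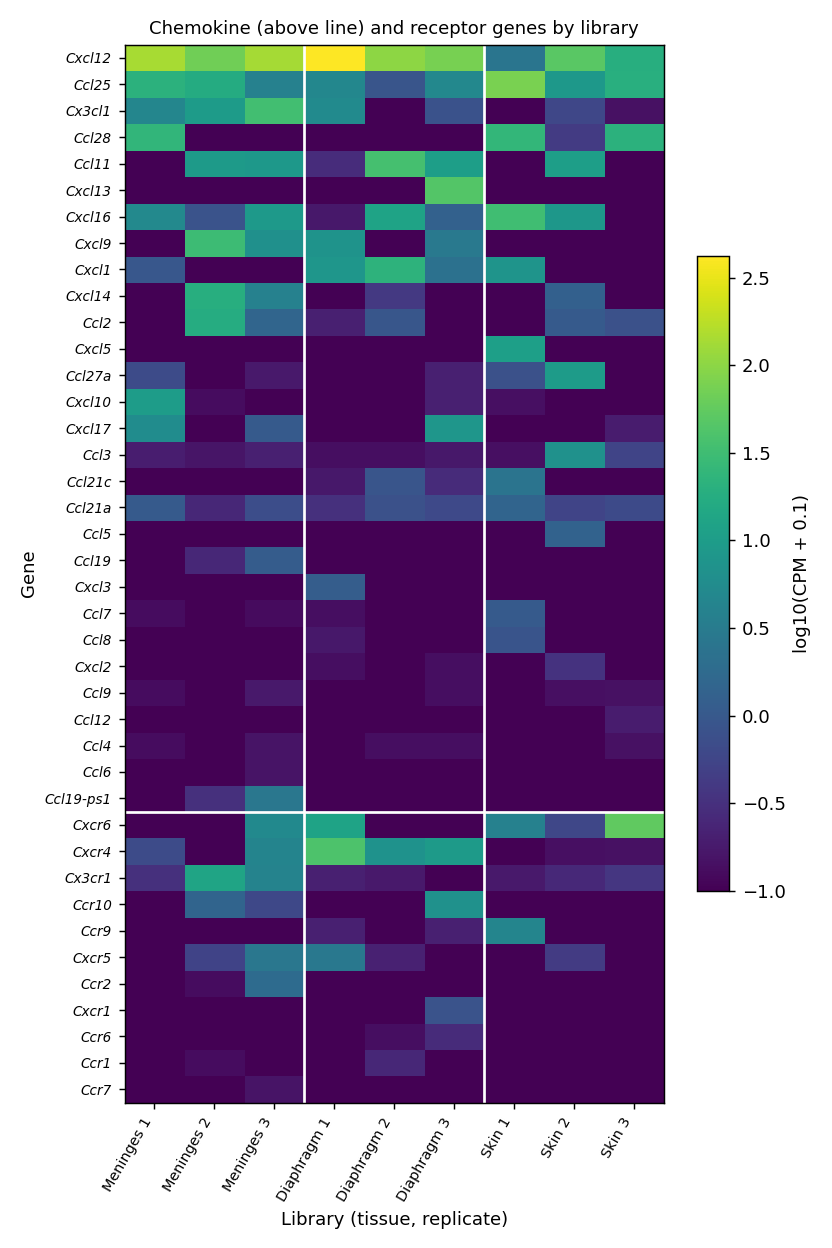
Level of 40 of the 41 members (y axis; 29 ligand genes above the line, 11 receptors below it) in each library (x axis), as colour on the log10(CPM + 0.1) scale, so that the darkest colour is 0 counts. Cxcl12 and Ccl25 are the members with at least 10 counts in all 9 libraries, and most other genes are bright in 1 or a few libraries of a tissue.

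Of the 41 members, 17 had enough counts to be tested, 13 ligands and the 4 receptors Cxcr4, Cxcr5, Cxcr6 and Ccr10. edgeR's quasi-likelihood test at an adjusted p under 0.05 called 0 of the 17 in meninges against diaphragm, where it called 0.344% of all 14831 genes tested. It also called 0 of 17 in meninges against skin, beside 1.32% of all genes, and 0 of 17 in diaphragm against skin, beside 0.0405%. The spread between libraries of a tissue was wide, with a biological coefficient of variation of 1.243. A p that misses the threshold does not show that the levels were equal.

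At an unadjusted p under 0.05 the same test counted 1 member in meninges against diaphragm (Ccl28), 4 in meninges against skin (Cx3cl1, Cxcl9, Cxcl12 and Cxcr4) and 6 in diaphragm against skin (Cxcl9, Cxcl12, Cxcr4, Ccr10, Ccl25 and Ccl28). The background at that threshold was 10.1%, 13.8% and 11.8% of all genes. DESeq2's Wald test at an adjusted p under 0.05 called Ccl28 in the first comparison, Cx3cl1, Cxcl9 and Ccr10 in the second and the same 6 members in the third, beside 4.57%, 8.21% and 5.91% of the genes it gave a p. limma voom called 0 members in each comparison, beside 1.35%, 2.79% and 0.00674% of genes. With no filter on low counts, edgeR called 0 of all 41 members in meninges against diaphragm, beside 1.29% of genes. It then called Cxcl12 in meninges against skin, beside 2.65%, and Cxcl12 and Ccl28 in diaphragm against skin, beside 1.33%. Libraries of the tissues did not overlap for 2 members in meninges against diaphragm (Cxcr4 and Cxcl1, both lower in meninges), beside 17.1% of all genes. They did not overlap for 2 in meninges against skin (Cxcl12 and Cx3cl1, both higher in meninges), beside 20.2%, and for 4 in diaphragm against skin, beside 13.5%.

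The median log2 fold change of the 17 was 0.13 for meninges against diaphragm, where all genes tested had 0.05. Against skin it was 2.31 for meninges and 2.09 for diaphragm, where all genes had 0.08 and 0.01. These medians stay as they are with genes at 0 counts in a tissue set to their bound. A low gene enters the test only if it is high in some libraries, so the medians describe the genes that entered and not the family.

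Cxcl12 was the most abundant member by CPM in the meninges and the diaphragm, and also by CPM per kilobase of exon, the scale that allows levels of different genes to be compared (14.0 in meninges and 24.3 in diaphragm). In skin, Cxcr6 led on that scale at 10.0 CPM per kilobase, most of it from 1 library, with Ccl25 next at 4.69. Cxcl12 stood at 138, 68.6 and 138 CPM in Meninges 1, 2 and 3, at 418, 101 and 76.3 CPM in Diaphragm 1, 2 and 3, and at 2.44, 48.7 and 18.6 CPM in Skin 1, 2 and 3. Every meningeal and every diaphragm library lay above every skin library, and the first 2 tissues overlapped. Mean levels were 115 ± 40.0, 199 ± 191 and 23.2 ± 23.5 CPM for the meningeal, diaphragm and skin libraries (SD, n = 3 each).

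In meninges against skin the log2 fold change of Cxcl12 was 2.31 (SE 0.89), with an adjusted p of 0.259 by edgeR. In diaphragm against skin it was 3.10 (SE 0.92), with an adjusted p of 0.277 by edgeR and 0.00877 by DESeq2. Without the filter on low counts, edgeR gave adjusted p-values of 0.029 and 0.00281 for these comparisons. In meninges against diaphragm it was -0.79 (SE 0.85, edgeR adjusted p 0.901), and 0.37 without Diaphragm 1. Cxcl12 made up 65.15%, 36.79% and 60.35% of all member counts in Meninges 1, 2 and 3, 81.36%, 55.83% and 45.18% in Diaphragm 1, 2 and 3, and 1.44%, 46.58% and 16.13% in Skin 1, 2 and 3.

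Cxcr4, the signalling receptor of CXCL12, had 0.564, 0 and 4.23 CPM in Meninges 1, 2 and 3, against 40.2, 7.01 and 9.38 CPM in Diaphragm 1, 2 and 3. In the skin libraries it had 0, 0.0406 and 0.0457 CPM, which is 2 counts in all. The diaphragm libraries were above all others, and the meningeal and skin libraries overlapped. Per unit of sequencing, Cxcr4 counts were 683 times as frequent in diaphragm as in skin (95% exact interval 189 to 5645) and 63.3 times as frequent in meninges as in skin (17.3 to 526). These intervals cover counting error only and not the spread between libraries. Of the 178 meningeal counts, 160 came from Meninges 3, without which the log2 fold change in meninges against skin was 3.12 in place of 5.61. Of the 1538 diaphragm counts, 1091 came from Diaphragm 1, without which the log2 fold change in diaphragm against skin was 7.96 in place of 9.17. With that spread, edgeR gave adjusted p-values of 0.291 for diaphragm against skin and 0.314 for meninges against skin, and DESeq2 gave 0.000255 for diaphragm against skin. In meninges against diaphragm the log2 fold change was -3.56 (SE 2.16, edgeR adjusted p 0.686).

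Ackr3, no member by symbol but the atypical receptor of CXCL12, had 11.6, 1.06 and 8.99 CPM in Meninges 1, 2 and 3, against 133, 150 and 187 CPM in Diaphragm 1, 2 and 3 and 172, 234 and 157 CPM in Skin 1, 2 and 3. Its log2 fold change was -4.44 (SE 0.73, edgeR adjusted p 0.0216) in meninges against diaphragm and -4.70 (SE 0.74, edgeR adjusted p 0.00813) in meninges against skin. The first call was lost without Meninges 3 (edgeR adjusted p 0.0741) or without Diaphragm 3 (0.0514). In diaphragm against skin it was -0.26 (SE 0.64, edgeR adjusted p 0.937).

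The balance of ligand and uptake receptor within a library was looked at after the values of both genes had been seen, and is given without a test. For each Ackr3 count there were 11.9, 64.6 and 15.3 Cxcl12 counts in Meninges 1, 2 and 3, 3.14, 0.677 and 0.409 in Diaphragm 1, 2 and 3, and 0.0141, 0.208 and 0.118 in Skin 1, 2 and 3. On the log2 scale the ratio averaged 4.51 ± 1.32 over the meningeal libraries, -0.07 ± 1.53 over the diaphragm libraries and -3.83 ± 2.04 over the skin libraries (SD, n = 3 each). The 3 tissues did not overlap in this ratio. Since both counts come from the same library, the ratio does not depend on how libraries are scaled to each other, but it is not a ratio of proteins or of transcript numbers per cell.

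**Figure D3:**
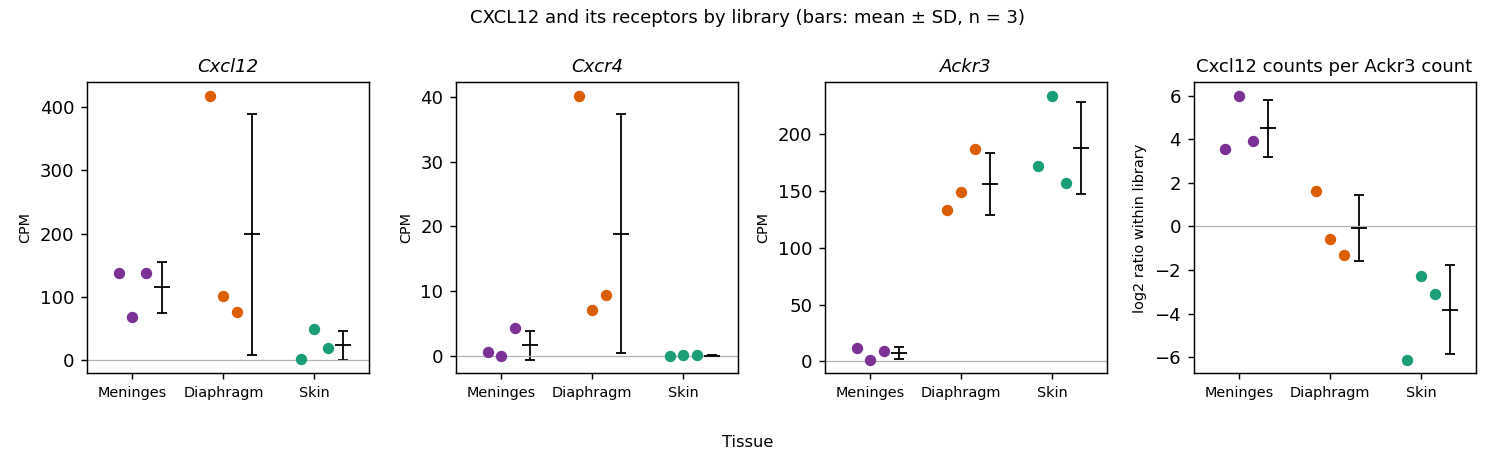
Level of Cxcl12, Cxcr4 and Ackr3 (first 3 panels, y axis in CPM) and log2 of Cxcl12 counts per Ackr3 count (last panel) in the libraries of meninges, diaphragm and skin (x axis), with points for libraries 1 to 3 and bars for mean ± SD. Ackr3 is at 11.6 CPM or below in meninges and at 133 CPM or above in the other tissues, and the ratio falls into 3 ranges that do not overlap.

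Other cell types that make or sense CXCL12 were measured beside these genes. The sum of 10 fibroblast markers was 1384, 8006 and 7846 CPM in Meninges 1, 2 and 3, 1446, 1268 and 663 CPM in Diaphragm 1, 2 and 3, and 112, 1082 and 767 CPM in Skin 1, 2 and 3. Of these 10, edgeR called Col3a1, higher in meninges than in skin (adjusted p 0.0496). The meningeal sum was mainly collagen, with means of 2102, 1892 and 727 CPM for Col1a1, Col1a2 and Col3a1. Dpt, Pi16 and Mfap5 had lower means in meninges than in diaphragm (2.16 against 87.6, 3.39 against 11.0 and 18.5 against 21.1 CPM). The other fibroblast markers had higher means in meninges than in diaphragm. The sum of 10 blood endothelial markers was 1533 to 4016 CPM in the meningeal libraries, 2350 to 3295 CPM in the diaphragm libraries and 1981 to 2052 CPM in the skin libraries. Of these 10, Aqp1, Esm1, Plvap and Sox17 rose and Emcn fell in meninges against skin at an edgeR adjusted p under 0.05, and Plvap rose in meninges against diaphragm. In skin the blood endothelial sum was mainly Cdh5, Kdr and Emcn, with means of 844, 620 and 337 CPM, while Plvap averaged 10.8 CPM. Esm1 and Sox17 were at 0 CPM in every skin library. How much of the sum came from blood endothelial cells was not tested. The sum of 9 mural cell markers was 533 to 1331 CPM in the meningeal, 339 to 557 CPM in the diaphragm and 28.8 to 281 CPM in the skin libraries, and Notch3 among them rose in meninges against skin (edgeR adjusted p 0.0235).

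Markers of mesothelium and muscle, which surround or form the diaphragm, had their highest sums in its libraries. The sum of 6 mesothelial markers was 0, 3.44 and 0 CPM in Meninges 1, 2 and 3, 1194, 41.0 and 86.3 CPM in Diaphragm 1, 2 and 3, and 0 in every skin library. Diaphragm 1, with the highest mesothelial sum, was also the highest library for Cxcl12 and Cxcr4. The sum of 6 muscle markers was 17.1, 35.5 and 24.3 CPM in Meninges 1, 2 and 3, 500.1, 964 and 311 CPM in Diaphragm 1, 2 and 3, and 81.2, 68.9 and 269 CPM in Skin 1, 2 and 3. In meninges against diaphragm, edgeR called the mesothelial gene Muc16 (adjusted p 0.0186), the muscle stem cell gene Pax7 (0.0223) and the muscle gene Ttn (0.0478), all lower in meninges. Ttn overlapped between diaphragm (161, 572 and 187 CPM in Diaphragm 1, 2 and 3) and skin (80.4, 55.8 and 269 CPM in Skin 1, 2 and 3). Its edgeR adjusted p in diaphragm against skin was 0.498. Pax7 had 0 CPM in every meningeal library, 288, 165 and 91.9 CPM in Diaphragm 1, 2 and 3, and 0, 1.99 and 0 CPM in Skin 1, 2 and 3. The part of all these cells in the levels of Cxcl12, Cxcr4 and Ackr3 was not tested.

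Ccl25, the ligand of CCR9 that guides T cells to thymus and small intestine, was, with Cxcl12, the only member with at least 10 counts in all 9 libraries. It had 21.1, 17.1 and 3.75 CPM in Meninges 1, 2 and 3, 4.61, 0.795 and 4.73 CPM in Diaphragm 1, 2 and 3, and 77.1, 8.53 and 19.1 CPM in Skin 1, 2 and 3. The means were 14.0 ± 9.09, 3.38 ± 2.24 and 34.9 ± 36.9 CPM in meninges, diaphragm and skin (SD, n = 3 each). Every diaphragm library was below every skin library, and the meningeal libraries overlapped both other tissues. In diaphragm against skin the log2 fold change was -3.37 (SE 1.35), with an adjusted p of 0.375 by edgeR and 0.0431 by DESeq2. In meninges against skin it was -1.32 (SE 1.25, edgeR adjusted p 0.77), and 0.01 without Skin 1. Its receptor Ccr9 had 3 counts each in Diaphragm 1 and 3, 113 counts in Skin 1, the library with the most Ccl25, and 0 in the other 6 libraries.

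Ccl28, a ligand of CCR10 known from mucosal epithelium, had 24.3 CPM in Meninges 1 and 0 in Meninges 2 and 3. It had 0 in all 3 diaphragm libraries, and 25.2, 0.325 and 21.1 CPM in Skin 1, 2 and 3. Diaphragm was thus below every skin library and not separated from meninges. Against a floor of 3 counts over the 3 diaphragm libraries, Ccl28 was at least 7.78 higher on the log2 scale in meninges (edgeR adjusted p 0.366), all of it from Meninges 1. Against the same floor the log2 fold change in diaphragm against skin was -8.72 or lower (edgeR adjusted p 0.341). Its receptor Ccr10 was found elsewhere, with 44 and 19 counts in Meninges 2 and 3, 184 counts in Diaphragm 3 and 0 in the other 6 libraries. No library held counts of both Ccl28 and Ccr10.

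Ccl27a, the other CCR10 ligand and a product of keratinocytes, had 18, 0 and 3 counts in Meninges 1, 2 and 3, 0, 0 and 3 counts in Diaphragm 1, 2 and 3, and 18, 237 and 0 counts in Skin 1, 2 and 3. Skin 2 also held 107 CPM of the keratinocyte gene Krt14 and 25.3 CPM of Krt5, which were at or near 0 in the other 8. Trp63 was found in Skin 2 alone, at 4.63 CPM. Dsp and Krt10 did not follow them. Dsp had 54.7 CPM in Skin 2 and also 45.8 CPM in Meninges 2. Krt10 was highest in Diaphragm 2, at 2.08 CPM, against 0.0812 CPM in Skin 2. The sum of 5 keratinocyte markers was 1.19 to 45.9 CPM in the meningeal libraries, 0.0358 to 2.08 CPM in the diaphragm libraries, and 0.0387, 192 and 0 CPM in Skin 1, 2 and 3. The part of keratinocytes in the Ccl27a count was not tested.

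Cx3cl1 encodes fractalkine, a membrane-bound ligand that also occurs in shed form. It had 4.54, 9.50 and 33.6 CPM in Meninges 1, 2 and 3, 5.38, 0 and 0.716 CPM in Diaphragm 1, 2 and 3, and 0, 0.487 and 0.0457 CPM in Skin 1, 2 and 3. Every meningeal library was above every skin library, while Diaphragm 1 lay within the meningeal range. In meninges against skin the log2 fold change was 6.44 (SE 2.72), with an adjusted p of 0.301 by edgeR and 0.0209 by DESeq2, and in meninges against diaphragm it was 2.96 (SE 2.30, edgeR adjusted p 0.815).

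Cx3cr1, the fractalkine receptor of monocytes and tissue macrophages, had 7, 411 and 152 counts in Meninges 1, 2 and 3, against 3, 2 and 0 counts in the diaphragm libraries and 2, 4 and 6 counts in the skin libraries. It was high in 2 of 3 meningeal libraries and did not enter the test. The sum of 13 myeloid markers was 39.4, 14.2 and 82.7 CPM in Meninges 1, 2 and 3, 69.8, 7.23 and 23.2 CPM in Diaphragm 1, 2 and 3, and 0.348, 33.5 and 2.24 CPM in Skin 1, 2 and 3. Meninges 2, with the most Cx3cr1, thus had the lowest myeloid sum of the 3 meningeal libraries, and the part of myeloid cells in the receptor's counts was not tested.

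Cxcl9, a ligand induced by interferon gamma, had 0, 30.0 and 6.37 CPM in Meninges 1, 2 and 3, 7.15, 0 and 2.83 CPM in Diaphragm 1, 2 and 3, and 0 in all 3 skin libraries. In each of the first 2 tissues 1 library was at 0 too, so no tissue stood apart from skin in every library. Against a floor of 3 counts over the skin libraries it was at least 8.19 higher on the log2 scale in meninges (edgeR adjusted p 0.222) and at least 6.33 higher in diaphragm (0.373). Cxcl10, which is induced by the same signal and acts on the same receptor, was found in another library, with 319 counts in Meninges 1 and 3 or fewer in every other library. Thus Meninges 1 held Cxcl10 without Cxcl9, and Meninges 2 and 3 held Cxcl9 with 1 and 0 counts of Cxcl10.

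Cxcl16, a membrane-bound ligand, had 5.04, 0.750 and 9.09 CPM in Meninges 1, 2 and 3, 0.0737, 12.4 and 1.22 CPM in Diaphragm 1, 2 and 3, and 32.5, 8.28 and 0 CPM in Skin 1, 2 and 3. Its receptor Cxcr6, found on T cells, had 0, 0 and 5.05 CPM in the meningeal libraries, 12.4, 0 and 0 CPM in the diaphragm libraries and 3.75, 0.487 and 53.9 CPM in the skin libraries. The libraries of all 3 tissues overlapped for both genes, and edgeR's adjusted p in meninges against skin was 0.88 for Cxcl16 and 0.731 for Cxcr6. The highest library for the receptor, Skin 3, was at 0 for the ligand.

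Ccl11 encodes eotaxin, which attracts eosinophils. It had 0, 9.28 and 8.56 CPM in Meninges 1, 2 and 3, 0.184, 35.2 and 10.5 CPM in Diaphragm 1, 2 and 3, and 0, 10.6 and 0 CPM in Skin 1, 2 and 3. All 3 tissues overlapped, and edgeR's adjusted p was 0.958, 0.957 and 0.837 for meninges against diaphragm, meninges against skin and diaphragm against skin.

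Cxcl1, a neutrophil attractant, had 0.877, 0 and 0 CPM in Meninges 1, 2 and 3, against 7.78, 21.7 and 2.15 CPM in Diaphragm 1, 2 and 3. It had 7.39, 0 and 0 CPM in Skin 1, 2 and 3. The diaphragm libraries were above all meningeal libraries and overlapped with skin. The log2 fold change in meninges against diaphragm was -5.15 (SE 3.14, edgeR adjusted p 0.687). Related neutrophil attractants were counted in single libraries, Cxcl3 with 29 counts in Diaphragm 1 and Cxcl5 with 279 counts in Skin 1.

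Cxcl13, which draws B cells into follicles, had 1240 counts (44.4 CPM) in Diaphragm 3 and 0 in the other 8 libraries, where a count of 0 allows up to 3 counts. Its receptor Cxcr5 had 0, 14 and 98 counts in Meninges 1, 2 and 3, 73, 3 and 0 counts in Diaphragm 1, 2 and 3, and 0, 8 and 0 counts in Skin 1, 2 and 3, so it was at 0 in the library that held the ligand. Diaphragm 3 was also where most Ccr10 counts and all 21 Cxcr1 counts were found. Of the 10 leukocyte markers in the table, all 10 had counts in Diaphragm 3, against 2 to 4 in each other library. The T cell gene Cd3e (19.9 CPM) was at 0 in the other 8 libraries, and the B cell gene Cd79a (16.2 CPM) was at 0 in 7 of them and at 2.44 CPM in Skin 2. The summed leukocyte level was 23.6 CPM or below in the meningeal libraries, 22.5, 130 and 73.7 CPM in Diaphragm 1, 2 and 3, and 8.53 CPM or below in the skin libraries. The part of leukocytes in the counts of Cxcl13, Ccr10 and Cxcr1 was not tested.

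**Figure D4:**
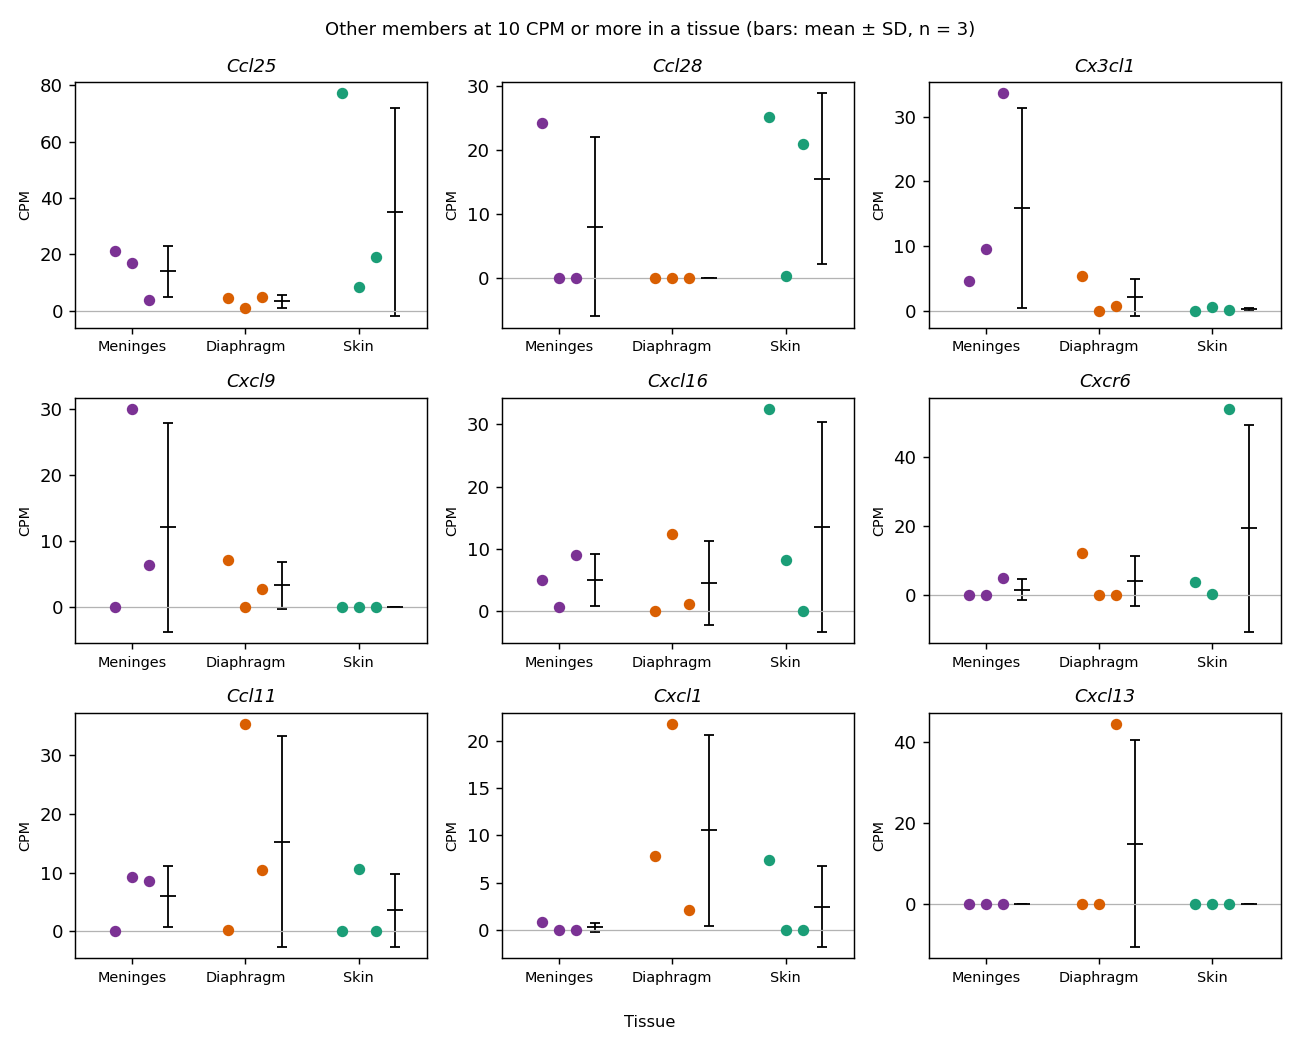
Level in CPM (y axis) of 9 members that averaged 10 CPM or more in a tissue, in the libraries of meninges, diaphragm and skin (x axis), with points for libraries 1 to 3 and bars for mean ± SD. Cx3cl1 is above all skin libraries in every meningeal library, Ccl28 is at 0 in diaphragm, and Cxcl13 rests on 1 library at 44.4 CPM.

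Ccl2, which attracts monocytes through CCR2, had 0, 17.3 and 1.43 CPM in Meninges 1, 2 and 3, and 0.974 CPM or below in each diaphragm and skin library. Cxcl14 had 0, 18.5 and 3.86 CPM in Meninges 1, 2 and 3, and 1.18 CPM or below in the others. Both were thus high in Meninges 2 and at 0 in Meninges 1. Meninges 2 also held transcripts of mast cell proteases, with 56.1 CPM of Mcpt4, 7.28 CPM of Cpa3 and 7.97 CPM of Tpsb2, which were at or near 0 in the other 8 libraries. The remaining mast cell marker, Kit, went the other way, with 6.51, 3.78 and 15.7 CPM in Meninges 1, 2 and 3. The sum of 4 mast cell markers was 6.51, 75.1 and 15.7 CPM in Meninges 1, 2 and 3, 2.25 to 15.1 CPM in the diaphragm libraries and 0.387 to 11.0 CPM in the skin libraries. Outside Meninges 2 this sum was almost all Kit. The fibroblast sum of Meninges 2, 8006 CPM, was close to the 7846 CPM of Meninges 3, where Ccl2 and Cxcl14 were lower. The part of mast cells or fibroblasts in the levels of Ccl2 and Cxcl14 was not tested. Ccr2 had 66 counts in Meninges 3, 1 count in Meninges 2 and 0 in the other 7 libraries.

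**Figure D5:**
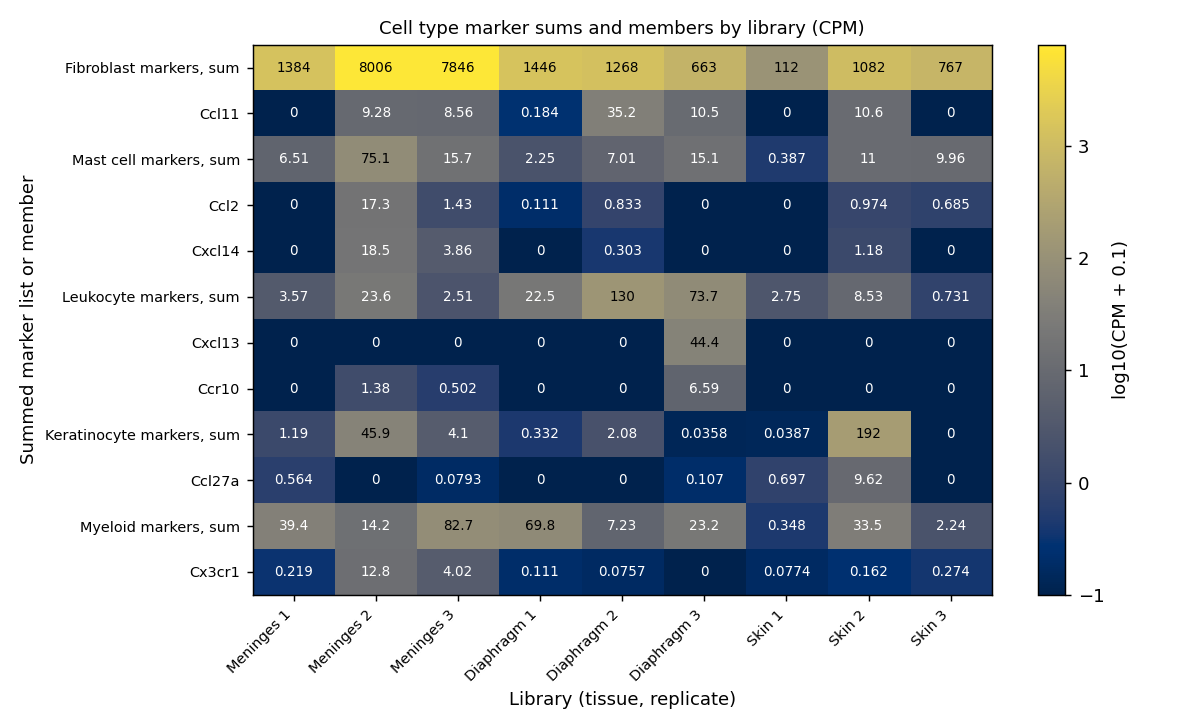
Summed level of 5 marker lists of other cell types and level of 7 members (y axis) in each library (x axis), with the CPM printed in each cell and the colour on the log10(CPM + 0.1) scale. Cxcl13 and Ccr10 are highest in Diaphragm 3, at 44.4 and 6.59 CPM, beside a leukocyte sum of 73.7 CPM. That sum is highest in Diaphragm 2, at 130 CPM, where both members are at 0. Ccl27a is highest in Skin 2 beside a keratinocyte sum of 192 CPM.

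The members not yet described were counted in few libraries. Ccl3, a ligand of CCR1, had 166 counts in Skin 2 and 10 or fewer in each other library, and Ccl5, which also binds CCR1, had 31 counts in Skin 2 alone. The monocyte attractants Ccl7 and Ccl8 had 25 and 20 counts in Skin 1 and 2 or fewer in every other library. Cxcl17 had 179 and 36 counts in Meninges 1 and 3, 223 counts in Diaphragm 3 and 2 counts in Skin 3, and 0 in the other 5.

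Genes that shape what chemokines do were examined as 5 lists. Of the 5 atypical receptors and relatives, Ackr3 was the 1 called by edgeR, lower in meninges than in diaphragm and than in skin, and 0 were called in diaphragm against skin (0 at an unadjusted p under 0.05, 0 by DESeq2 and 0 by limma voom). Ackr2, which takes up inflammatory CC chemokines, had 238, 32.8 and 155 CPM in Meninges 1, 2 and 3, 98.3, 224 and 116 CPM in Diaphragm 1, 2 and 3, and 151, 153 and 284 CPM in Skin 1, 2 and 3. The tissues overlapped, and the log2 fold change was -0.04 (SE 0.60, edgeR adjusted p 0.995) in meninges against diaphragm and -0.47 (SE 0.60, edgeR adjusted p 0.853) in meninges against skin. Ackr4, which takes up CCL19, CCL21 and CCL25, had 27.4 CPM in Meninges 2 and 2.70 CPM or below in the other 8 libraries. Ackr1, a receptor of venous blood vessels, had 4.69 CPM in Diaphragm 3 and 0.731 CPM or below in the others.

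The platelet chemokine Ppbp had 27.4, 24.2 and 19.1 CPM in Meninges 1, 2 and 3, 186, 40.0 and 24.0 CPM in Diaphragm 1, 2 and 3, and 2.94, 0.0406 and 0 CPM in Skin 1, 2 and 3. All meningeal and all diaphragm libraries were above the skin libraries. The log2 fold change was 4.55 (SE 1.56) in meninges against skin, with an adjusted p of 0.207 by edgeR and 0.00845 by DESeq2. In diaphragm against skin it was 6.38 (SE 1.70), with an adjusted p of 0.21 by edgeR and 5.37e-05 by DESeq2. Without Skin 1 a single Ppbp count remained in skin, and the log2 fold changes were 9.85 (edgeR adjusted p 0.0137) and 11.67 (0.0211), sizes that depend on the near absence of counts in skin. Pf4, another platelet chemokine, had 0.814 CPM or below in the meningeal libraries, 10.4, 0.189 and 1.90 CPM in Diaphragm 1, 2 and 3, and 0.697 CPM or below in the skin libraries. With Mif and Hmgb1, these made a list of 4, of which edgeR called 0 in each comparison. At an unadjusted p under 0.05 there were 1, 2 and 1 genes, DESeq2 called 0, 1 and 1, and limma voom called 0. The unadjusted counts include Hmgb1 in meninges against diaphragm and in meninges against skin. It overlapped in both and had 5573 CPM in Meninges 2, against 36.9 and 43.3 CPM in Meninges 1 and 3.

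Of 17 genes that sense or relay inflammatory signals upstream of chemokine genes, edgeR called 1 in meninges against skin, where it called 1.32% of all genes tested. At an unadjusted p under 0.05 there were 5, DESeq2 called 4 (Il1r1, Nfkbiz, Tlr4 and Zfp36) and limma voom called 3 (Il6st, Nfkbiz and Zfp36). The gene called by edgeR was Zfp36, which encodes tristetraprolin, a protein that destabilises cytokine messenger RNA, at 49.4 ± 13.0 CPM in meninges and 425 ± 248 CPM in skin (SD, n = 3 each), with a log2 fold change of -3.10 (SE 0.48, edgeR adjusted p 0.00743). In meninges against diaphragm and in diaphragm against skin edgeR called 0 of the 17, with 1 and 4 at an unadjusted p under 0.05, 1 and 1 called by DESeq2, and 0 by limma voom. Il6st, the shared receptor chain of the interleukin 6 family, had the highest level of this list, with means of 966, 1062 and 1816 CPM in meninges, diaphragm and skin. Nfkb1 had means of 139, 149 and 145 CPM in the same order.

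Of 17 genes for G-protein signalling below chemokine receptors, 12 were tested and edgeR called 0 in each comparison, with 1, 2 and 1 at an unadjusted p under 0.05, 0, 0 and 1 called by DESeq2, and 0 by limma voom. Rac1, a GTPase of cell migration, led this list, with means of 502, 659 and 611 CPM in meninges, diaphragm and skin. Of 15 genes for heparan sulfate, which holds chemokines at the cell surface, and for chemokine-cleaving proteases, edgeR called 0 in each comparison, with 1, 4 and 3 at an unadjusted p under 0.05, 0, 2 and 2 called by DESeq2, and 0 by limma voom. The sheddase Adam10, which releases CX3CL1 and CXCL16 from the membrane, had means of 182, 227 and 242 CPM in meninges, diaphragm and skin. Beside the counts of all 5 lists, given in the same order of comparisons, stand the shares of all genes. These were 10.1%, 13.8% and 11.8% at an unadjusted p under 0.05 and 4.57%, 8.21% and 5.91% by DESeq2. They were 0.344%, 1.32% and 0.0405% by edgeR and 1.35%, 2.79% and 0.00674% by limma voom.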

How the data were processed

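Per the labels' protocols, RNA of the sorted cells was isolated with an Arcturus PicoPure kit and copied with NuGEN's Ovation RNA-Seq System V2 before library construction. The deposited table holds 1 column of raw read counts per library and 1 gene per Ensembl identifier; the submitters' processing notes name FastQC, STAR, HTSeq and the build mm9. Tool versions, gene annotation, strand setting and the counting of reads that match several genes are not given in the sources used. Overlapping, antisense and near-identical genes may thus share counts. The reference annotation at hand (GENCODE M21) is of another build, so no coordinates are printed. It named 7100 genes that had no symbol, Ccl19-ps1 among them, and gave the exon lengths for CPM per kilobase.

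All 9 libraries were used. Genes were filtered with filterByExpr and libraries scaled by TMM, and edgeR 4.0.16 (R 4.3.3) fitted 1 mean per tissue to the 9 libraries with its quasi-likelihood test. The threshold for a call was a Benjamini-Hochberg adjusted p of 0.05 over all 14831 genes tested, and standard errors come from the F statistic. The alternatives were DESeq2 1.42.0, limma 3.58.1 (voom with quality weights), DESeq2 size factors, no filter, a minimum of 50 counts in at least 3 libraries, only the 2 tissues compared, a replicate block, and leaving out single libraries. The tests were also tried on simulated counts, drawn with the means and spread fitted to these data. Only genes above the median level were changed there, so the trial cannot show how the tests treat low members. No result given here rests on it. Chi-square per degree of freedom between libraries of a tissue was 308.31 to 506.93, so they differed beyond counting noise. Each library was counted as 1 sample, but these values cannot show whether replicates were separate mice, pools or repeats of 1 preparation. Floors of 3 counts and counting intervals cover counting error only. Shared stretches were counted in a member's longest transcript against every transcript of other genes. Tables and plots were made in Python 3.11.15 with pandas 2.3.3 and matplotlib 3.10.9.

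The members and lists were chosen with earlier results of these data known. The naming rule gives values in every library for members that averaged 10 CPM or more in a tissue and for their known partners, and names other genes where called, among the 3 highest of a list, or where a result turns on them. The values of 1 member are not reported here, though it is included in the counts of members. Other members outside this rule are accounted for by their counts, and those set beside each other in 1 library were chosen after their values were seen.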

Additional observations from a re-analysis of the deposited data

How the results depend on the processing

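Of the 41 members, 33 had at least 10 counts in a library and 27 at least 1 count in 3 libraries. The count of 0 called members in each comparison held under DESeq2 size factors, a minimum of 50 counts in at least 3 libraries, fits to only the 2 tissues compared, limma voom, and with any 1 library left out. DESeq2 called 1 in meninges against diaphragm, 3 in meninges against skin and 6 in diaphragm against skin, and edgeR without the filter called 1 in meninges against skin and 2 in diaphragm against skin; the cause was not tested. Libraries with the same replicate number did not deviate together (correlations -0.0205 to 0.0512). The labels do not say what the numbers mean. Low correlations cannot show whether same-numbered libraries shared mice or a preparation, since such a share could be small beside the spread between libraries. With the replicate block edgeR called 0 members in each comparison, and Ppbp in meninges against skin had a log2 fold change of 6.83 (adjusted p 0.0412). With 1 library left out, the log2 fold change of Cxcl12 in meninges against diaphragm ran from -1.18 to 0.37 and that of Ccl25 in meninges against skin from -1.79 to 0.01; both turned without 1 library, Diaphragm 1 and Skin 1. The alternatives, each fitted to the whole table, were read for chosen comparisons of Cxcl12, Cxcr4, Ackr3, Ccl25, Cx3cl1 and Ppbp. Ackr3 and Cx3cl1 in diaphragm against skin and Ppbp in meninges against diaphragm were not among them. Of the log2 fold changes read, 222 kept direction and call, 13 became called, 2 lost their call and 2 turned. DESeq2 size factors shifted libraries by -0.0583 to 0.0441 on the log2 scale. With 3 libraries per tissue and counts of many members in 1 of them, differences as large as those of Cxcr4 and Cxcl9 did not pass edgeR's threshold.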

Other observations

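Hmgb1, a nuclear protein that binds CXCL12 when released, had 36.9, 5573 and 43.3 CPM in Meninges 1, 2 and 3, 67.4, 35.3 and 64.8 CPM in Diaphragm 1, 2 and 3, and 77.6, 59.1 and 113 CPM in Skin 1, 2 and 3. It is named for the value in Meninges 2, after the values were seen.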
